A study of Caenorhabditis elegans with 2 samples.

Results

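The mitochondrial chromosome of Caenorhabditis elegans carries 36 annotated genes, of which 12 encode proteins, 2 encode ribosomal RNAs and 22 encode transfer RNAs. The 10 mRNA genes described here encode subunits of the respiratory chain: nduo-1, nduo-2, nduo-3, nduo-4, nduo-5 and nduo-6 of complex I, ctb-1 of complex III, and ctc-1, ctc-2 and ctc-3 of complex IV. They were chosen by name, with earlier results of these data known. A forward-strand read belonged to a gene where its 3' end lay in the annotated span or in the 20 nt past it. All 10 passed the minimum of 20 reads over both libraries, and with the other genes to which reads could be assigned they make up 10 of 3045 genes.

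RNA 3' ends had been sequenced from 1 library of sorted nuclei and 1 of input nuclei, both from worms of strain JM149, so the libraries could not be tested against each other and nothing checks them by replication. The sorted nuclei had been prepared for flow cytometry and carry an intestine label and a nuclear RNA label. The input nuclei carry labels of mixed tissues and total RNA. Both came from liquid cultures of mixed stages at 25 °C, strained to enrich adults, and the labels used here give no allele or transgene beyond the strain name. Tissue, sorting and the RNA label cannot be told apart in the comparison, and neither can fewer cells of a type and less RNA per cell.

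Animal mitochondria keep a small circular genome whose mRNAs are made inside the organelle, outside the nucleus. In this worm all its genes lie on the same strand, and long transcripts are cut into single mRNAs, often at the transfer RNAs that stand between them. The mRNAs receive short poly(A) tails, which an oligo(dT) primer such as the one used here can bind. Complex I passes electrons from NADH to ubiquinone, complex III passes them to cytochrome c, and complex IV passes them to oxygen.

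The sorted library held 4709432 reads at 165811 positions and the input library 9243831 reads at 215104 positions. Of the marker genes that could be measured, sorted nuclei had all 6 of the 6 for intestine (14 listed) higher by 2-fold or more. Among them ges-1, the gut esterase gene, stood at 829 against 257 reads per 1000000 of all reads (RPM). By the same rule 13.4% of 1925 nuclear genes, in the stretches where gene models could be used, were higher and 4.62% lower. The marker lists were drawn up with earlier results of these data known, so they are not an independent check. Of the markers of other tissues, 2 of 2 for hypodermis, 1 of 3 for pharynx and 1 of 3 for germ line (mex-3) were at least 2-fold lower, 1 more for germ line (gld-1) was higher, and 0 of 3 for body wall muscle and 0 of 1 for neurons were called.

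Mitochondrial reads were a smaller share of the sorted library. They numbered 6888 in sorted nuclei, or 0.146% of reads (95% interval 0.143 to 0.1498), and 23586 in input nuclei, or 0.255% (0.252 to 0.258). The ratio of sorted over input was 0.573 (0.558 to 0.589). Intervals are exact binomial or Poisson ones and cover counting error only, since reads from PCR without molecular identifiers are not independent molecules.

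The 10 mRNA genes together held 4855 sorted reads and 14807 input reads, or 1031 RPM in sorted nuclei and 1602 RPM in input nuclei. That ratio was 0.644 (0.623 to 0.665). Among 15049 clusters of nuclear 3' ends (20 reads or more) the median ratio was 1.04, and 27.7% of them had a lower ratio than the 10 genes summed. The genes took up 70.5% of sorted mitochondrial reads (69.4 to 71.6) and 62.8% of input ones (62.2 to 63.4).

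A gene was called at least 2-fold lower or higher in sorted nuclei where the bound of its ratio nearest 1 passed 2-fold. Of the 10 genes, 0 were called lower and 0 higher. Among the nuclear clusters 6.15% were called lower and 15.6% higher, and among 1925 nuclear genes in the stretches where gene models could be used 4.62% and 13.4% were. At 4-fold 0 of 10 were called either way, against 1.09% of nuclear clusters lower and 6.53% higher, and 0.26% and 4.05% of nuclear genes. Without the 2-fold margin, 8 of 10 genes had an interval wholly below 1 and 0 an interval wholly above it. The background for this is 27.1% of nuclear clusters wholly below 1 and 33.1% wholly above it, and 27.9% and 31.2% of nuclear genes. Read depth was not matched in this comparison, and intervals are narrower where there are more reads. Nuclear clusters and genes entered from 20 reads over both libraries. The least frequently read of the 10, nduo-2, had 35 sorted and 141 input reads.

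**Figure D1:**
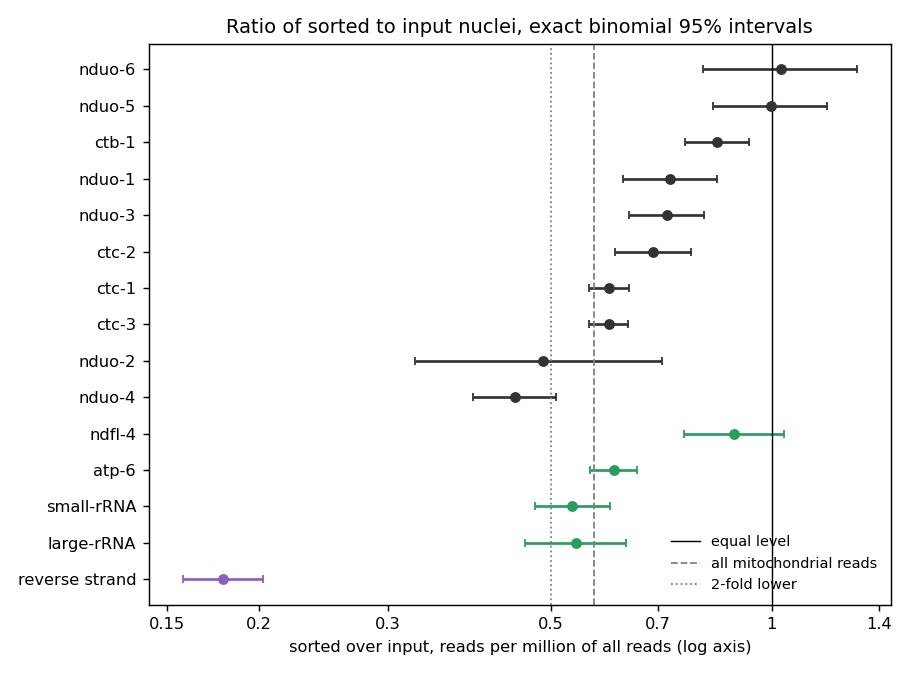
Ratio of sorted over input nuclei in RPM (log axis) for the 10 mRNA genes (black), the other mitochondrial mRNA and rRNA genes (green) and all reverse-strand mitochondrial reads (purple), 1 library per group, with exact binomial 95% intervals for counting error. The 10 genes run from 0.446 for nduo-4 to 1.03 for nduo-6, with a median of 0.704. The ratio of all mitochondrial reads, which include the reverse strand, is 0.573 (dashed), and only nduo-4 and nduo-2 lie below it. The reverse strand lies apart at 0.179.

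Among the complex IV genes, ctc-3 and ctc-1 were the most frequently read of the 10 and together made up 54.8% of the genes' reads in sorted and 58.8% in input nuclei. The gene ctc-3 encodes cytochrome c oxidase subunit III and spans positions 5678 to 6449 of the mitochondrial chromosome (MtDNA, WBcel235 annotation, forward strand). It had 1368 reads (290.5 RPM, 275 to 306) in sorted nuclei and 4481 reads (485 RPM, 471 to 499) in input nuclei. Its ratio was 0.599 (0.564 to 0.637).

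The gene ctc-1, at 7827 to 9428, encodes subunit I, which holds the oxygen-reducing site. It had 1291 reads (274 RPM, 259 to 290) in sorted and 4219 reads (456 RPM, 443 to 470) in input nuclei, a ratio of 0.601 (0.564 to 0.639). The gene of subunit II, ctc-2, at 9649 to 10348, encodes the subunit that takes electrons from cytochrome c. It had 383 reads (81.3 RPM, 73.4 to 89.9) in sorted and 1090 reads (118 RPM, 111 to 125) in input nuclei, a ratio of 0.690 (0.612 to 0.776). All complex IV genes were thus lower in sorted nuclei beyond counting error, by less than 2-fold, and the interval of ctc-2 overlapped those of the other two.

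The complex III gene ctb-1, at 4504 to 5621, encodes cytochrome b. It had 553 reads (117 RPM, 108 to 128) in sorted and 1289 reads (139 RPM, 132 to 147) in input nuclei, a ratio of 0.842 (0.761 to 0.931). It was closer to equal than the complex IV genes ctc-1 and ctc-3, whose intervals lay below its own.

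The complex I genes spread most widely. The ratio was lowest for nduo-4, at 6506 to 7808, whose product is a subunit of the proton-pumping membrane arm. It had 290 reads (61.6 RPM, 54.7 to 69.1) in sorted and 1275 reads (138 RPM, 130 to 146) in input nuclei, a ratio of 0.446 (0.392 to 0.508). Its upper bound lay just outside the 2-fold limit, and under TMM scaling (a trimmed mean of ratios) the ratio was 0.427 (0.374 to 0.485) and the gene was called lower.

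The other end of the range was held by nduo-6 and nduo-5. For nduo-6, at 113 to 549, a membrane-arm subunit, there were 107 reads (22.7 RPM, 18.6 to 27.5) in sorted and 204 reads (22.1 RPM, 19.1 to 25.3) in input nuclei, a ratio of 1.03 (0.807 to 1.31). For nduo-5, at 11691 to 13272, another subunit of the membrane arm, there were 189 reads (40.1 RPM, 34.6 to 46.3) in sorted and 372 reads (40.2 RPM, 36.3 to 44.5) in input nuclei, a ratio of 0.997 (0.833 to 1.19). Both ratio intervals hold 1 and lie wholly above that of nduo-4. Direction is not settled for either gene. Counting each position once per library caps how far a ratio can go. It gave 0.670 (0.342 to 1.26) for nduo-6, which holds 1, and 0.599 (0.452 to 0.788) for nduo-5. With single-read positions left out, the ratios were 1.07 (0.831 to 1.38) for nduo-6 and 1.11 (0.904 to 1.37) for nduo-5.

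Between these lay nduo-1 and nduo-3. The gene nduo-1, at 1763 to 2635, encodes a membrane subunit next to the quinone-binding site and had 251 reads (53.3 RPM, 46.9 to 60.3) in sorted and 677 reads (73.2 RPM, 67.8 to 79.0) in input nuclei, a ratio of 0.728 (0.627 to 0.842). The gene nduo-3, at 11356 to 11691, encodes a small membrane-arm subunit and had 388 reads (82.4 RPM, 74.4 to 91.0) in sorted and 1059 reads (115 RPM, 108 to 122) in input nuclei, a ratio of 0.719 (0.639 to 0.809). The intervals of these 2 genes overlapped across most of their width.

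The least frequently read was nduo-2, at 3389 to 4269, another membrane-arm subunit, with 35 reads (7.43 RPM, 5.18 to 10.3) in sorted and 141 reads (15.3 RPM, 12.8 to 17.99) in input nuclei. Its ratio of 0.487 (0.326 to 0.710) rests on few reads. It turned to 1.28 (0.653 to 2.46) with only the reads within 24 nt of the annotated end, 17 in sorted and 26 in input nuclei. Without the gene's largest position, an alternative chosen after seeing the data, the ratio was 0.661 (0.425 to 1.003), and this interval holds 1.

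**Figure D2:**
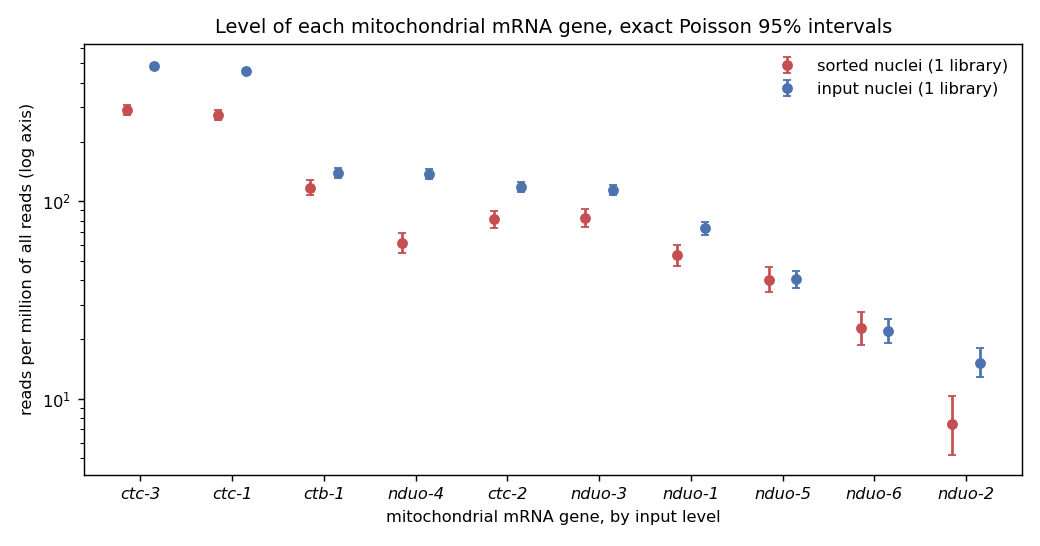
Level of each gene in RPM (log axis) in sorted nuclei (red, left of each pair) and input nuclei (blue), 1 library per group, with exact Poisson 95% intervals for counting error. Both libraries have ctc-3 and ctc-1 at the top and nduo-2 at the bottom, and nduo-5 and nduo-6 have overlapping intervals in the 2 libraries.

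Levels of different genes were set side by side per kilobase of annotated span, although a transcript counted at its 3' end gives 1 read whatever its length. In sorted nuclei the order in RPM per kilobase was ctc-3 (376), nduo-3 (245), ctc-1 (171), ctc-2 (116), ctb-1 (105), nduo-1 (61.1), nduo-6 (52.0), nduo-4 (47.3), nduo-5 (25.4) and nduo-2 (8.44). Neighbours with overlapping intervals there were ctc-2 and ctb-1, nduo-1 and nduo-6, and nduo-6 and nduo-4. In input nuclei it was ctc-3 (628), nduo-3 (341), ctc-1 (285), ctc-2 (168), ctb-1 (125), nduo-4 (106), nduo-1 (83.9), nduo-6 (50.5), nduo-5 (25.4) and nduo-2 (17.3), with 0 neighbouring intervals overlapping. The place of nduo-4 is what differed, eighth in sorted and sixth in input nuclei.

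Scaled to mitochondrial reads alone, the share of ctc-3 was 19.9% in sorted nuclei (18.9 to 20.8) and 19% in input nuclei (18.5 to 19.5). That of ctc-1 was 18.7% (17.8 to 19.7) in sorted and 17.9% (17.4 to 18.4) in input nuclei. Both pairs of intervals overlap. On this scale ctb-1 made up 8.03% (7.40 to 8.70) of sorted and 5.47% (5.18 to 5.76) of input mitochondrial reads. The shares of nduo-6 were 1.55% (1.27 to 1.87) in sorted and 0.865% (0.751 to 0.991) in input nuclei, and those of nduo-5 2.74% (2.37 to 3.16) and 1.58% (1.42 to 1.74).

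In the other direction, nduo-4 stood at 4.21% (3.75 to 4.71) of sorted and 5.41% (5.12 to 5.70) of input mitochondrial reads. The shares of nduo-1, nduo-3 and ctc-2 in sorted nuclei were 3.64%, 5.63% and 5.56%, and in input nuclei 2.87%, 4.49% and 4.62%. For nduo-2 they were 0.508% in sorted nuclei (0.354 to 0.706) and 0.598% in input nuclei (0.503 to 0.705). The median ratio of shares over the 10 genes was 1.23.

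These shares depend on the denominator, since reverse-strand reads were a larger part of the input mitochondrial reads. With the 10 genes' own reads as the total, ctc-3 had a ratio of shares of 0.931 (0.876 to 0.989) and ctc-1 of 0.933 (0.876 to 0.994), below 1 in place of above it. On that total nduo-6 stood at 1.60 (1.25 to 2.03), nduo-5 at 1.55 (1.29 to 1.85), ctb-1 at 1.31 (1.18 to 1.45) and nduo-4 at 0.694 (0.609 to 0.789). Against all other forward-strand mitochondrial reads, 3 genes (nduo-6, nduo-5 and ctb-1) had a ratio interval above that of the rest, 1 (nduo-4) below it, and 6 overlapped it. With each position counted once, the ratio of mitochondrial shares was 1.17 (0.599 to 2.21) for nduo-6, 1.05 (0.791 to 1.38) for nduo-5, 1.17 (0.929 to 1.47) for ctb-1 and 0.769 (0.526 to 1.10) for nduo-4, and each of these intervals holds 1. For nduo-5 that compares with 1.74 over all its reads. With only the reads within 24 nt of the annotated end, the ratio was 1.07 (0.836 to 1.35) for ctb-1. For nduo-5 it was 0.922 (0.338 to 2.18), on few reads, and both intervals hold 1. On those reads nduo-6 stood at 1.76 (1.36 to 2.27) and nduo-4 at 0.737 (0.637 to 0.850).

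The next comparison asked where in each gene the 3' ends lay and whether sorted nuclei differed there. In 9 of 10 genes in sorted nuclei and 8 of 10 in input nuclei, the position with the most reads lay 1 to 8 nt before the annotated end. No shift between the files and the annotation was seen along the mitochondrial chromosome. Whether positions are counted from 0 or from 1 is not stated, so each distance may be off by 1 nt. The position with the most reads was the same in both libraries in 9 of 10 genes.

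For ctc-3 it was 6448, which held 671 of 1368 sorted reads (49.0%) and 2863 of 4481 input reads (63.9%). For nduo-3 it was 11689, with 303 of 388 sorted reads (78.1%) and 810 of 1059 input reads (76.5%). Single positions also led in nduo-6 (545, with 73.8% of sorted and 76.0% of input reads), nduo-4 (7806, 69.0% and 72.9%) and ctc-2 (10347, 49.1% and 47.5%). They held less in nduo-1 (2633, 24.3% of sorted and 34.4% of input reads), ctc-1 (9420, 18.98% and 17.4%) and ctb-1 (5617, 14.1% and 19.1%). These ends are thus sharp, to the nucleotide, in some genes and carry only a small part of the reads in others.

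Set against the coding sequence, the leading end lay 1 nt past the last base before the stop codon in nduo-6, ctc-1 and nduo-3, 4 nt past it in ctb-1 and 6 nt past it in ctc-3 and ctc-2. In nduo-1 it lay 2 nt before the annotated end of the coding sequence. Mitochondrial mRNAs of animals often have almost nothing after the stop codon, and the poly(A) tail can supply the last bases of the stop codon itself. The exception was nduo-4, whose leading end lay 74 nt past the last coding base, shortly before the start of ctc-1.

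**Figure D3:**
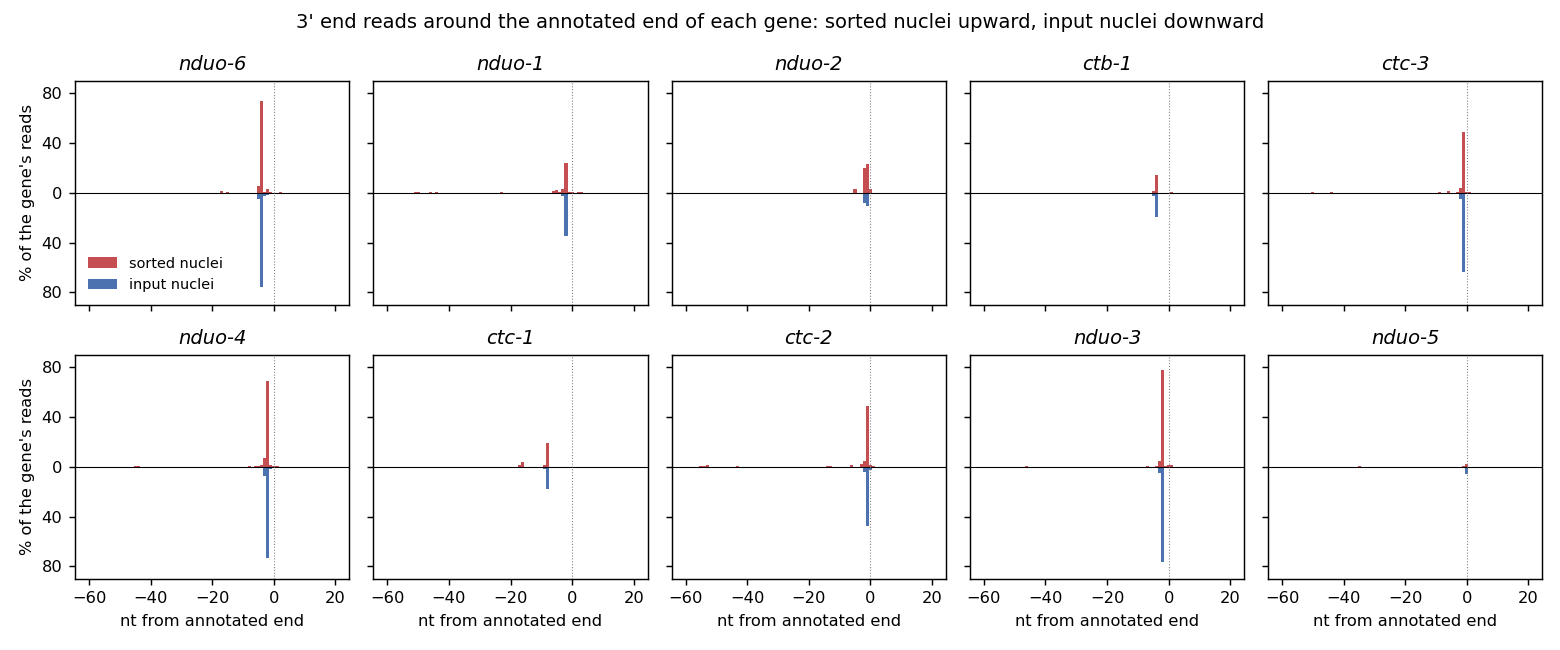
Share of each gene's reads (%) at each distance in nt from its annotated end, for sorted nuclei upward and input nuclei downward, 1 library each, genes in genome order. A sharp peak stands 1 to 8 nt before the end in 9 genes, low in nduo-2, ctb-1 and ctc-1, while nduo-5 shows almost no reads there.

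In nduo-5 no peak stood at the annotated end. Only 7 of 189 sorted reads (3.70%, 1.50 to 7.48) and 26 of 372 input reads (6.99%, 4.62 to 10.1) lay within 24 nt of it. Scaled to all reads, these had a ratio of 0.528 (0.194 to 1.25), beside 0.997 for the gene as a whole. Its leading site, at 12609, lay 663 nt before the end inside the coding sequence and held 24.3% of sorted reads (18.4 to 31.1) and 15.6% of input reads (12.1 to 19.7). A further 34 sites were spread over the gene. Those at 12254, 12316, 12967 and 12721 each held at least 10% of reads in 1 library or both.

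In nduo-2, as in ctb-1, the libraries led with different sites. The site at the gene end, at 4268, held 17 of 35 sorted reads (48.6%, 31.4 to 66.0) and 26 of 141 input reads (18.4%, 12.4 to 25.8). The site at 3419 held 5 sorted reads (14.3%, 4.81 to 30.3) and 51 input reads (36.2%, 28.3 to 44.7). That position lies 30 nt past the start of the annotated span and 3 nt past a transfer RNA gene at 3362 to 3416. The site at 4268 differed by 30.1 percentage points with intervals that did not overlap.

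The share of reads at the site with the most reads over both libraries was compared over all 10 genes, with a difference called where it reached 20 percentage points and the intervals did not overlap. This gave 0 of 10 genes, against 7.57% of 1268 nuclear genes that had 20 reads or more in both libraries. For nduo-2, the only gene past 20 points at that site, the intervals overlapped. The median nuclear gene had 93.3% of sorted and 93.2% of input reads at its leading site. Of the 10 mitochondrial genes, 5 had less than 50% there in sorted nuclei and 5 in input nuclei, where 9.46% and 8.52% of those nuclear genes did.

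Summed over the 10 genes, 2268 of the sorted reads (46.7%) and 7787 of the input reads (52.6%) lay within 24 nt of an annotated end. The rest lay inside genes. Oligo(dT) primers can also bind runs of A inside a transcript, and no sequence was used here to set such reads apart, so their part in the values was not tested.

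In ctc-3 the 2 kinds of reads had different ratios. Within 24 nt of the end there were 803 sorted and 3388 input reads, a ratio of 0.465 (0.430 to 0.503). Elsewhere in the gene there were 565 sorted and 1093 input reads, a ratio of 1.01 (0.915 to 1.12). Much of the second kind came from a site at 6327, 122 nt before the end, with 300 sorted reads (21.9% of the gene's reads, 19.8 to 24.2) and 346 input reads (7.72%, 6.96 to 8.54). That site had a ratio of 1.70 (1.45 to 1.99), and the share of the site at the gene end was 58.7% (56.0 to 61.3) in sorted and 75.7% (74.4 to 76.9) in input nuclei.

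The gene ctb-1 went the same way, with ratios of 0.612 (0.479 to 0.776) at the end and 0.910 (0.813 to 1.02) elsewhere. Its site at the gene end, at 5617, held 16.6% (13.6 to 20.0) of sorted and 22.9% (20.6 to 25.3) of input reads. An internal site at 5012 held 19.3% (16.1 to 22.9) of sorted and 16.5% (14.5 to 18.7) of input reads, and so had the most sorted reads, with an interval that overlaps that of the end site. One at 5300 held 13.02% of sorted and 14.3% of input reads.

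In ctc-1 the order was the opposite. Reads at its end had a ratio of 0.728 (0.642 to 0.824) and those elsewhere one of 0.564 (0.524 to 0.606). The reads at the end include a second peak, with 52 sorted and 53 input reads 16 nt before the annotated end. The leading position, 8 nt before that end, had 245 sorted and 735 input reads. How far the higher ratio at the end rests on the second peak was not tested. The internal site at 8261, 1167 nt before the end, held 22.1% of sorted reads (19.8 to 24.4) and 20.5% of input reads (19.3 to 21.8). The leading site at 9420 held 27.3% (24.9 to 29.9) of sorted and 22.5% (21.3 to 23.8) of input reads. In nduo-2 the ratio was 1.28 at the end and 0.307 (0.176 to 0.507) elsewhere. With it there were 2 genes of each kind with intervals apart, and in the other 6 the intervals overlapped. The same count over nuclear genes was not made, so these numbers have no background.

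**Figure D4:**
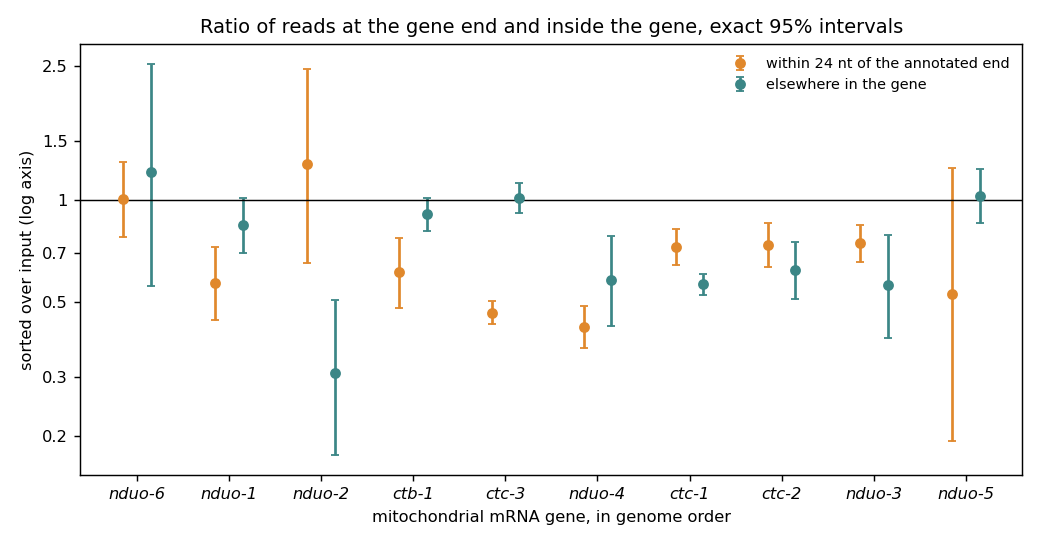
Ratio of sorted over input nuclei (log axis) for reads within 24 nt of the annotated end (orange) and for reads elsewhere in the gene (teal), scaled to all reads, 1 library per group, with exact binomial 95% intervals for counting error. The 2 kinds lie apart in ctc-3 and ctb-1, where the end is lower, and in nduo-2 and ctc-1, where the end is higher.

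For the remaining genes, the site at the end of nduo-1 held 33.5% of sorted (27.7 to 39.7) and 42.7% of input reads (38.9 to 46.5). Internal sites of this gene at 1882, 2334 and 2401 held 15.5%, 12.4% and 6.77% of sorted reads and 10.3%, 5.76% and 10.3% of input reads. In ctc-2 the site at 10347 held 63.2% of sorted and 59.1% of input reads, and one at 10240 held 10.2% and 7.98%. In nduo-6, nduo-4 and nduo-3 over 80% of reads lay at the end in both libraries, from 80.3% for nduo-4 to 88.7% for nduo-3 in sorted nuclei and from 84.9% for nduo-4 to 89.7% for nduo-6 in input nuclei.

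Reads on the reverse strand of the mitochondrial chromosome, where the annotation has no gene, had a lower ratio than each of the 10 genes. They numbered 274 in sorted nuclei, or 3.98% of mitochondrial reads (3.53 to 4.47), and 3009 in input nuclei, or 12.8% (12.3 to 13.2). Scaled to all reads the ratio was 0.179 (0.157 to 0.202). The share of mitochondrial reads had a ratio of 0.312 (0.275 to 0.353). Opposite to nuclear genes in the usable stretches, reverse reads were 0.862% in sorted and 0.432% in input nuclei, the other direction.

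Gene by gene, the reverse share was compared without a background, since the same count over nuclear genes was not made. The reverse share was lower in sorted nuclei with intervals apart in 9 of the 10. In nduo-5 it was 7.35% (4.17 to 11.8) of both strands in sorted and 33.3% (29.4 to 37.4) in input nuclei. In nduo-1 it was 6.34% (3.74 to 9.96) in sorted and 27.5% (24.7 to 30.5) in input nuclei, and in ctb-1 6.27% (4.45 to 8.54) and 25.4% (23.4 to 27.6). In ctc-3 it was 7.002% (5.75 to 8.43) in sorted and 18.9% (17.8 to 19.9) in input nuclei, and in ctc-1 5.35% (4.22 to 6.68) and 14.8% (13.8 to 15.8). In nduo-4, at 2.68% (1.17 to 5.22) in sorted and 4.06% (3.07 to 5.27) in input nuclei, the intervals overlapped.

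**Figure D5:**
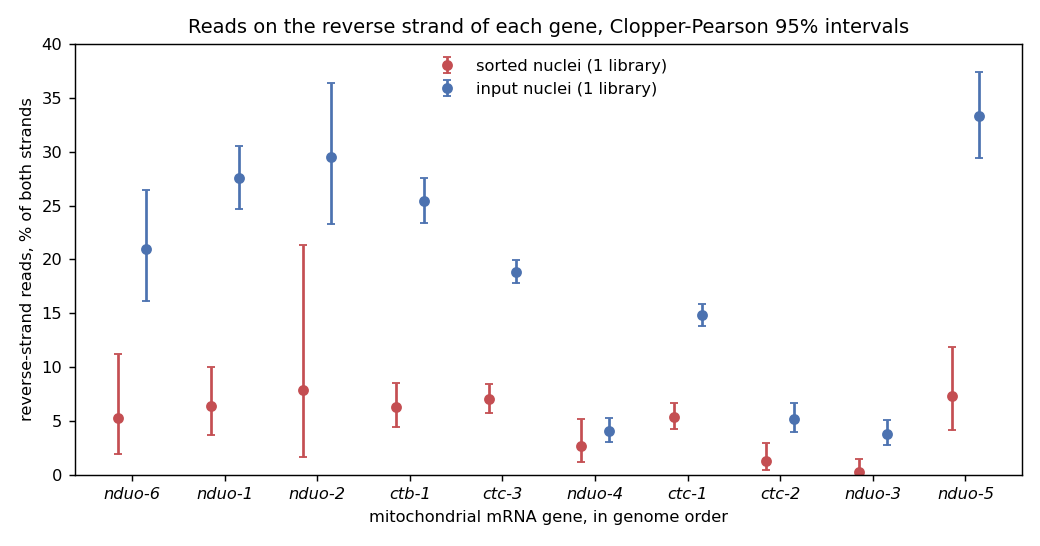
Reads on the reverse strand of each gene as a percentage of its reads on both strands, in sorted nuclei (red, left of each pair) and input nuclei (blue), 1 library per group, genes in genome order, with Clopper-Pearson 95% intervals. Sorted nuclei stay at or below 7.89% in every gene, and input nuclei reach 33.3% in nduo-5.

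The reverse reads lay at distinct sites, described here after their values were seen. The largest, at 5735 opposite ctc-3, had 6 sorted and 488 input reads, a ratio of 0.0241 (0.00881 to 0.0529). One at 8906 opposite ctc-1 had 13 sorted and 297 input reads, and one at 8580 opposite the same gene had 55 sorted and 255 input reads, a ratio of 0.423 (0.310 to 0.569). Sites were described from 50 reads over both libraries, most of which were input reads. The site at 6359 opposite ctc-3 went the other way, with 72 sorted and 9 input reads, a ratio of 15.7 (7.83 to 35.7), and made up 26.3% of all reverse reads in sorted nuclei. It lies 32 nt past the forward site at 6327, which also had a higher RPM in sorted than in input nuclei.

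Of the other mRNA genes, the complex V gene atp-6, which encodes ATP synthase subunit a, had 922 sorted reads (196 RPM) and 2972 input reads (322 RPM), a ratio of 0.609 (0.565 to 0.656). The complex I gene ndfl-4 had 236 sorted reads (50.1 RPM) and 521 input reads (56.4 RPM), a ratio of 0.889 (0.759 to 1.04). It starts at the last base of nduo-6, whose ratio interval overlaps its own. The spans of nduo-1 and atp-6 also share bases, and their ratio intervals overlap. Those of nduo-3 and nduo-5 share a base, and their ratios of 0.719 and 0.997 have intervals that do not overlap.

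The small rRNA gene had 362 sorted and 1328 input reads, a ratio of 0.535 (0.475 to 0.601), and the large rRNA gene 203 and 736 reads, a ratio of 0.541 (0.461 to 0.633). Transfer RNA genes together held 4 sorted and 40 input reads, a ratio of 0.196 (0.0510 to 0.543), and 32 sorted and 173 input forward reads fell in no gene.

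Nuclear genes of the same pathway were taken from a list of 64 symbols for complexes I to V, of which 11 could be measured. Among them 1 was called at least 2-fold lower and 1 higher, where 4.62% and 13.4% of the 1925 nuclear genes were. Of the 11, 6 had an interval wholly below 1 and 2 wholly above it, beside 27.9% and 31.2% of those nuclear genes. The median ratio of the 11 was 0.819, beside 1.00 over the 1925 nuclear genes. The complex IV gene cox-6C stood at 376 RPM in sorted and 353 RPM in input nuclei, a ratio of 1.07 (1.005 to 1.13). The complex V gene atp-3 had a ratio of 0.906 (0.7999 to 1.03) and the complex III gene ucr-11 one of 0.832 (0.748 to 0.925).

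Of complex I, ndub-7 stood at 187 RPM in sorted and 306 RPM in input nuclei, a ratio of 0.612 (0.566 to 0.660), in the range of ctc-1 and ctc-3. Those for nduf-6, nuo-5 and nuo-2 were 0.819 (0.684 to 0.979), 1.09 (0.826 to 1.44) and 0.564 (0.406 to 0.771). The gene called higher was nduf-5, with 38 sorted and 17 input reads. The one called lower was ndua-12, with 0 sorted and 27 input reads, where a count of 0 allows up to 3 reads or 0.637 RPM.

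For mitochondrial gene expression, 8 of 79 listed genes could be measured, 7 of them for ribosomal proteins of the organelle. In either direction 0 of the 8 were called, where 4.62% of the 1925 nuclear genes were called lower and 13.4% higher. The median ratio of the 8 was 0.832. The most frequently read was mrpl-55, with a ratio of 1.68 (1.42 to 1.98), and the elongation factor gene tufm-2 had 4 sorted and 33 input reads.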

How the data were processed

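For each library the authors deposited reads per position and strand as whole-number counts, not scaled. The other deposited column used holds the position, a coordinate and no score. Reads were aligned with TopHat, per the submitters' processing notes. For the genome build, the read filters and reads that map to several places, the answer is not given in the sources used here. Per the labels' protocols, about 65 ng of RNA was reverse transcribed from a primer of 24 T, amplified as antisense RNA and by 12 cycles of PCR, and inserts of about 50 to 60 nt were taken.

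Annotated spans came from Ensembl's WBcel235 annotation, and RefSeq symbols (WBcel235) were matched by gene start. Where the 20 nt extension of an mRNA or rRNA gene ran into the next gene, the upstream gene kept the read. Transfer RNA genes took only positions that no mRNA or rRNA gene had claimed. Ratios of sorted over input were scaled to all reads, with exact binomial 95% intervals. Levels have exact Poisson intervals and shares Clopper-Pearson ones, and a count of 0 allows up to 3 reads. Sites were built greedily, from the highest position outward, each taking the unclaimed positions up to 24 nt away. Main sites and other sites with at least 10% of a gene's reads in either library are named. Nuclear clusters were made the same way.

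Nuclear gene models were used in 40 of 203 windows of 0.5 Mb, where the commonest offset from annotated 3' ends was at most 5 nt. The cause of other offsets elsewhere was not tested. Nuclear genes took their span plus 300 nt, and a position kept its gene where shifts of 10 nt gave the same gene. The genes named were all 10 and the other mitochondrial genes with at least 20 reads, and of the nuclear lists up to 4 genes of most reads for each complex and for gene expression, with genes of called ratios and tufm-2 added after their values were seen. The 10 genes and all lists were chosen with earlier results of these data known. The intervals and calls were tested on simulated Poisson counts, which hold counting error only. That test has no PCR copies and no difference between libraries, so it cannot show how the intervals hold for these reads. Tools were Python 3.11.15, SciPy 1.17.1, pandas 2.3.3, matplotlib 3.10.9, R 4.3.3, edgeR 4.0.16 and DESeq2 1.42.0, the last 2 for scaling factors only.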

Additional observations from a re-analysis of the deposited data

How the results depend on the processing

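Among the 10 genes the number called at least 2-fold lower was 1, nduo-4, in place of 0 under TMM, under median of ratios, with the 100 largest nuclear clusters left out of the total, with single-read positions left out, and with reads near the gene end alone, and the number called higher stayed at 0 under each alternative run. The ratio of the 10 genes summed was 0.615 under TMM, 0.616 under median of ratios, 0.602 without the 100 largest clusters (0.536 for all mitochondrial reads), 0.615 with each position counted once and 0.572 with reads near the gene end alone. It was 0.716 without the largest position of each gene, an alternative chosen after seeing the data, so in each it stayed below 1. With each position counted once the median ratio was 0.620, the median ratio of mitochondrial shares 1.08 and the ratio of reverse-strand shares 0.453. With single-read positions left out, 1 gene had a shifted leading site in place of 0. For single genes, 114 of 130 ratios stayed within their interval, and 16 moved outside it. Leaving out the minimum of reads could change none of them, since all 10 genes passed it. Counting positions from 0 changed none. Among the ratios of mitochondrial shares 90 stayed and 20 moved, and among the sorted shares at the leading site 57 stayed and 13 moved. Removing reads followed by runs of A was planned and not run, because no sequence was used here. No paired analysis was possible because each group has 1 library. With 1 library each, differences between libraries of a group are not measured, and nduo-2 is limited by its 35 sorted reads.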
